A study of Mus musculus with 2 samples.

Results

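The metabotropic glutamate receptors described here are the products of 7 mouse genes, Grm2, Grm3, Grm4, Grm5, Grm6, Grm7 and Grm8, taken by gene symbol from 55536 annotated genes; they are not the whole family, and other members are not analysed here. Metabotropic glutamate receptors are G protein-coupled receptors that sense glutamate with a large extracellular domain and act as dimers. Group I receptors, here Grm5, couple to Gq and phospholipase C and lie mainly postsynaptically, where they take part in long-term depression in the hippocampus. Group II (Grm2 and Grm3) and group III (Grm4, Grm6, Grm7 and Grm8) couple to Gi and Go, lower cyclic AMP and, at presynaptic terminals, reduce transmitter release.

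Total RNA from the hippocampus of 2 male B6CASTF1/J mice, hybrids of C57BL/6J with CAST/EiJ, was measured by RNA sequencing in 1 library per animal. Both animals were 8 to 10 months old, each library was made from 300 ng of RNA, and there was no treatment, mutation or second tissue. Replicate 1 was animal 2 and replicate 2 was animal 4, although both carry the same donor entry in the labels. All mice were therefore of 1 group, and the comparisons possible were between genes, between transcripts of a gene, and between the animals, with replicate 1 over replicate 2 in every ratio.

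The replicate 1 library held 23458117 expected counts and the replicate 2 library 29584307. Dentate granule cell markers (Prox1, C1ql2, C1ql3, Dsp, Lct and Tdo2) averaged 4.29 to 64.5 TPM (a level that accounts for transcript length and library size), and astrocyte markers 21.5 to 826.8 TPM. All 4 markers of cerebellar granule cells averaged 0.145 TPM or less. Among the cell type markers examined, the libraries differed most in those of choroid plexus. Their summed level was 17.6 TPM in replicate 1 and 1785.4 TPM in replicate 2. By the edgeR test described below, 7 of those 8 genes (Ttr, Kl, Folr1, Sostdc1, Kcnj13, Clic6 and Aqp1, but not Otx2) were lower in replicate 1. The part of this difference in the receptor genes' ratios was not tested.

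Grm5 was the highest of these receptor genes, Grm3, Grm7 and Grm2 formed a middle tier, Grm4 and Grm8 were low, and Grm6 had no counts in either animal. Grm5 alone made up 52.8% ± 0.167 (SD, n = 2) of the summed TPM of the 7 genes. Several receptors were divided between transcripts that end differently: the part of each transcript that separates these forms is shown here because it decides the intracellular tail of Grm5, Grm7 and Grm8, and removes part of the receptor in Grm2 and Grm4. Sequences are from GENCODE M21 transcripts on mm10, 5′ to 3′; capitals mark the bases present in the first-named transcript and absent from the other, and lower case the 6 transcript bases on either side.
Grm5-204, absent from Grm5-202: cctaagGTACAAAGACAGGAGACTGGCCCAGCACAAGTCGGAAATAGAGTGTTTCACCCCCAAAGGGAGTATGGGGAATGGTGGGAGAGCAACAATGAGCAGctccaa
Grm7-201, absent from Grm7-202: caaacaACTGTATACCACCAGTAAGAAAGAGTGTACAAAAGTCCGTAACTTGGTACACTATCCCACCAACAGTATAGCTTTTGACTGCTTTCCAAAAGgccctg
Grm8-202, absent from Grm8-201: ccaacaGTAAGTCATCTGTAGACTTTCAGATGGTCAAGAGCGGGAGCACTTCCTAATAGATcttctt
Grm4-201, absent from Grm4-207: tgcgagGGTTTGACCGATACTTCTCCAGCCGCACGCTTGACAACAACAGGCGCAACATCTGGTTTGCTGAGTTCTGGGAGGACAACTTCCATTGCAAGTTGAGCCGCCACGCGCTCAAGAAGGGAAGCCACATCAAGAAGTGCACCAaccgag

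The Grm5 stretch is an exon of 96 bases at chr7:88116193-88116288 on the plus strand, exon 8 of 9, all coding and a multiple of 3, with 52.1% G and C. The Grm7 stretch is an exon of 92 bases at chr6:111501510-111501601 on the plus strand, exon 10 of 11; 68 of its bases are coding, and since its length is not a multiple of 3 it replaces the end of the protein. The Grm8 stretch lengthens exon 10 of 11 by 55 bases at chr6:27285680-27285734 on the minus strand, 47 of them coding, and likewise changes the reading frame. The Grm4 stretch is exon 6 of 11, 141 coding bases at chr17:27450125-27450265 on the minus strand. In Grm2 the shorter transcript lacks 834 coding bases from inside exon 4, which is 1076 bases long, at chr9:106647271-106648104 on the minus strand. In the full transcript the missing stretch begins with GT and ends with AG, the bases found at the ends of most introns; both of its edges and the joined sequence of the shorter transcript are shown with 20 bases on either side, capitals marking missing bases.
Grm2-201, first edge: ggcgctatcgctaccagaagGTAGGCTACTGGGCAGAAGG
Grm2-201, second edge: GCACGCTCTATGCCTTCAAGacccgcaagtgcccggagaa
Grm2-203, joined: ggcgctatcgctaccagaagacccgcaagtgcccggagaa
A repeat of 3 bases, AAG, stands at the end of the missing stretch and just before it.

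Grm5 (ENSMUSG00000049583.15, chr7:87584168-88134907, plus strand, 550.7 kb) had 129.44 TPM in replicate 1 and 110.56 TPM in replicate 2, from 9560 and 11540 expected counts. Its mean of 120.0 ± 13.4 TPM (SD, n = 2) lay above 94.0% of the 13029 protein-coding genes with at least 1 TPM in both libraries. Both animals gave Grm5 as the highest, 3.48-fold above Grm3 in replicate 1 and 3.44-fold in replicate 2. In this bulk tissue, fewer cells of a type and less RNA per cell cannot be told apart, for this and every level that follows.

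Among the group II genes, Grm3 (ENSMUSG00000003974.6, chr5:9485541-9725170, minus strand), the group II receptor that astrocytes also express, had 37.22 TPM in replicate 1 and 32.14 TPM in replicate 2 (mean 34.68 ± 3.59, SD, n = 2). Grm2 (ENSMUSG00000023192.12, chr9:106643095-106656082, minus strand), known from the terminals of dentate granule cells, had 28.0 TPM in replicate 1 and 26.74 TPM in replicate 2 (mean 27.37 ± 0.891, SD, n = 2). Grm3 exceeded Grm2 1.33-fold in replicate 1 and 1.20-fold in replicate 2, with the interval bounds of the 2 genes apart in both libraries.

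In group III, Grm7 (ENSMUSG00000056755.13, chr6:110645581-111567230, plus strand, 921.6 kb), a receptor of the presynaptic active zone, had 38.94 TPM in replicate 1 and 29.64 TPM in replicate 2 (mean 34.29 ± 6.58, SD, n = 2). Its libraries lay farther apart than those of Grm3, whose mean level was close to it. Grm4 (ENSMUSG00000063239.17, chr17:27422387-27521403, minus strand), known for its level in cerebellar granule cells, had 6.03 TPM in replicate 1 and 5.33 TPM in replicate 2. Grm8 (ENSMUSG00000024211.15, chr6:27275119-28135178, minus strand), a presynaptic receptor of perforant path terminals, had 5.98 TPM in replicate 1 and 4.44 TPM in replicate 2. Both genes sat in the lower part of the detected range, Grm4 above 20.7% and Grm8 above 19.1% of detected protein-coding genes.

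Grm6 (ENSMUSG00000000617.14, chr11:50850685-50866208, plus strand), the glutamate receptor of retinal ON bipolar cells, had 0 expected counts in both libraries. A count of 0 allows up to 3 counts, which is 0.0655 TPM in replicate 1 and 0.0486 TPM in replicate 2; such limits cover counting error alone. The authors' own upper bounds for Grm6 were wider, 0.217 TPM in replicate 1 and 0.164 TPM in replicate 2, and those bounds were used in the order of levels. The second quantification program assigned it 0 counts in replicate 1 and 1 count in replicate 2. Grm6 was thus not detectable at this depth by the first program, and its partners in the retinal cascade were mostly low as well. Of 10 such genes, 2 reached 1 TPM in both libraries, beside 13029 of 22028 protein-coding genes. Gng13, a G protein gamma subunit, had 58.0 TPM in replicate 1 and 58.1 TPM in replicate 2. Rgs11, a regulator of G protein signalling, had 30.41 and 21.21 TPM. The channel Trpm1 averaged 0.0350 TPM, Gnb3 0.0400, Lrit3 0.0550, Pcp2 0.190, Gpr179 0.220, nyctalopin (Nyx) 0.460 and Isl1 0.0100 TPM.

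**Figure D1:**
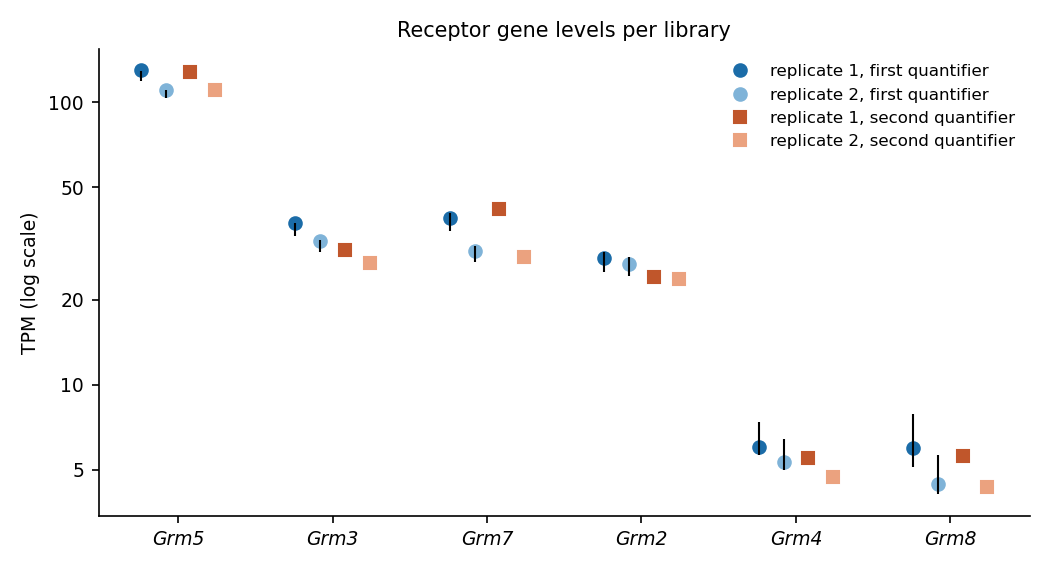
TPM on a log scale of the 6 detected receptor genes in replicate 1 and replicate 2, by the first program (circles, with the interval bounds in the authors' tables as lines) and the second (squares). Grm5 lies above 100 TPM at every point, Grm4 and Grm8 lie near 5 TPM, and Grm6, with 0 counts by the first program, is not drawn.

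Ordered by mean TPM, the genes ran Grm5, Grm3, Grm7, Grm2, Grm4, Grm8 and Grm6, but neighbours were not all separated. A step was called separated when the interval bounds of the TPM, given for each gene in the authors' tables without the level of the interval, were apart in both libraries. This held for 3 of 6 steps: Grm5 over Grm3, Grm2 over Grm4 and Grm8 over Grm6. Grm3 and Grm7 changed places, with Grm7 higher in replicate 1 and Grm3 higher in replicate 2 by the first program, and Grm7 higher in both libraries by the second (41.89 TPM against 29.86 TPM in replicate 1). Grm7 and Grm2 were apart in replicate 1 alone, and Grm4 and Grm8 overlapped in both. In replicate 1 the TPM of Grm5 itself, 129.44, lay above its own interval of 119.2 to 128.6, since level and interval are separate estimates.

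Summed by group, group I (Grm5 alone) had 129.44 TPM in replicate 1 and 110.56 TPM in replicate 2, group II 65.22 and 58.88 TPM, and group III 50.95 and 39.41 TPM. By the second program, groups II and III were closer in replicate 1, at 54.0 and 53.0 TPM, than in replicate 2, at 50.6 and 37.4 TPM. Set against the glutamate-gated channels, the 7 receptor genes made up 12.9% ± 0.133 of the TPM summed over both kinds (SD, n = 2). The AMPA receptor genes made up 44.9% ± 1.51, the NMDA receptor genes 31.3% ± 1.59 and the kainate receptor genes 10.9% ± 0.0579. Grm5 had a level below Gria1 (359.22 TPM in replicate 1 and 363.98 TPM in replicate 2) and Grin1 (214.63 and 178.57 TPM), obligate subunit of NMDA receptors, and somewhat above the kainate subunit Grik5 (108.58 and 96.28 TPM).

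The difference between the animals was tested gene by gene with edgeR, with the spread taken from the trend over all genes, since each animal gave 1 library. Of 16123 genes tested, 126 passed at a Benjamini-Hochberg adjusted p of 0.05 (0.781%), and 0 of the 6 receptor genes with enough counts did, with 0 at an unadjusted p under 0.05, a level that 732 of the 16123 genes passed. With 6 genes and so small a share passing among all genes, these counts of 0 say little about the receptor genes, and a p that misses the threshold does not show that the animals had like levels. Their log2 ratios of replicate 1 over replicate 2 were 0.17 for Grm7, 0.14 for Grm8, 0.09 for Grm3 and Grm4, 0.04 for Grm5 and 0.02 for Grm2, with edgeR adjusted p of 1.000 each. By the second program they ran from -0.03 for Grm2, -0.02 for Grm3 and -0.02 for Grm5 to 0.12 for Grm8, so the direction of these 3 turned with the program. The unadjusted p was lowest for Grm7, at 0.364 by edgeR. With 2 animals, no exact permutation test could reach a p of 0.05.

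In TPM all 6 were higher in replicate 1, as in the count ratios of the first program. The TPM ratios ran from 1.05-fold for Grm2 to 1.35-fold for Grm8 by the first program. By the second they ran from 1.02-fold for Grm2 to 1.48-fold for Grm7. The interval bounds of the 2 libraries were apart for Grm5, Grm3 and Grm7, 3 of 6, as they were for 23.4% of 13029 detected protein-coding genes, 19.0% with replicate 1 higher; these bounds hold the error of assigning reads, not the spread between animals. TPM ratios of protein-coding genes as a whole also leaned to replicate 1. The TPM log2 ratio ran from 0.07 for Grm2, which spans 13.0 kb, through 0.18 for Grm4 (99.0 kb), 0.21 for Grm3 (239.6 kb) and 0.23 for Grm5 (550.7 kb), to 0.43 for Grm8 (860.1 kb) and 0.39 for Grm7 (921.6 kb). Over the tested protein-coding genes the median TPM log2 ratio was 0.02 for 3128 genes of up to 10 kb and 0.19 for 534 genes over 300 kb. The part of gene length in the receptor genes' ratios was not tested.

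**Figure D2:**
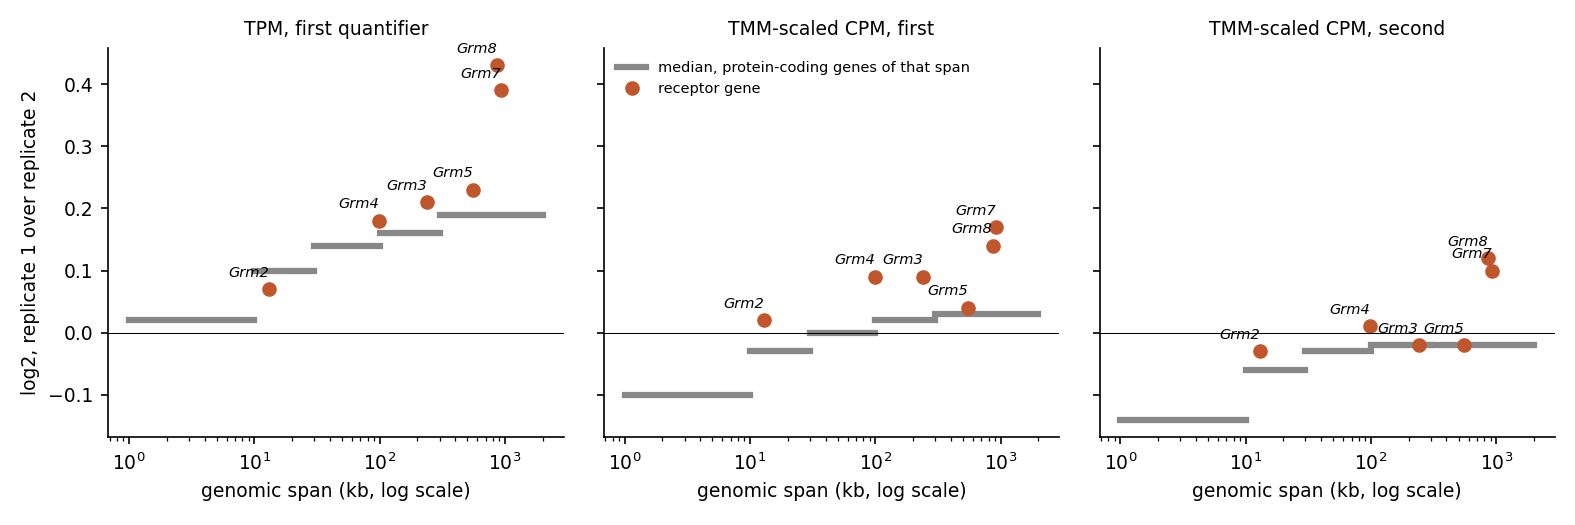
Log2 ratio of replicate 1 over replicate 2 against genomic span on a log scale, for TPM and for CPM after TMM scaling (a scaling on the bulk of genes; CPM is counts over library size) by the first and second programs; points are the 6 receptor genes and bars the medians of protein-coding genes of each span. Grm7 and Grm8, the longest of the 6, have the highest ratios in each panel, at 0.39 and 0.43 in TPM and at 0.10 and 0.12 by the second program.

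Grm5 was split between 2 coding transcripts. Grm5-202, with 1171 codons and without the 96-base exon, as in the form named mGlu5a, held 45.10% of the gene's TPM in replicate 1 and 49.98% in replicate 2. Grm5-204, with 1203 codons and the exon, as in mGlu5b, held 32.36% in replicate 1 and 30.95% in replicate 2. Both forms have the same membrane-spanning part and bind Homer scaffolds through the tail, and in rat forebrain the b form is known to gain on the a form after birth. Of the pair's TPM, Grm5-204 had 41.8% in replicate 1 and 38.2% in replicate 2, and by the second program 45.4% and 42.3%. The transcript without the exon was thus ahead in all 4 quantifications. The annotated transcripts also differ in their last exon, 4927 bases in Grm5-202 and 1674 bases in Grm5-204, and the tables hold no reads across the exon itself, so these shares describe whole transcripts.

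A processed transcript of 551 bases with no coding sequence, Grm5-205, took 13.54% of Grm5 TPM in replicate 1 and 13.92% in replicate 2 but only 1.2% and 1.1% of its expected counts. By the second program its TPM share was 23.1% in replicate 1 and 25.3% in replicate 2. A level per length gives so short a transcript a large share from few reads. Counted over protein-coding transcripts alone, Grm5 averaged 94.87 TPM and remained the highest of the 7.

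In Grm7, 1 form differed between the libraries and the other hardly did. Grm7-202, with 915 codons and without the 92-base exon, as in mGlu7a, had 18.82 TPM in replicate 1 and 18.57 TPM in replicate 2. Grm7-201, with 922 codons and the exon, as in mGlu7b, had 13.15 TPM in replicate 1, with bounds of 9.91 to 15.0, and 6.87 TPM in replicate 2, with bounds of 4.28 to 8.54. The form with the exon was therefore apart between the libraries and the form without it was not; by the same rule 14.0% of 21354 protein-coding transcripts were apart, 9.58% with replicate 1 higher. Of the receptors' 10 protein-coding transcripts that reached 1 TPM in both libraries, 3 were apart (Grm3-201, Grm5-204 and Grm7-201), all higher in replicate 1. Grm7-201 made up 41.1% of the pair in replicate 1 and 27.0% in replicate 2, and by the second program 49.5% and 35.4%. The last exon of Grm7-201 is 50 bases long and that of Grm7-202 1213 bases, so again ends and exon are not separated. Grm7-204, annotated as a target of nonsense-mediated decay, had 171.8 expected counts in replicate 1 and 183.1 in replicate 2. The short coding fragments Grm7-203 and Grm7-205 held 9.14% and 1.15% of Grm7 TPM in replicate 1, but 15.0 estimated counts of Grm7-205 made 13.4% there by the second program.

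Grm8 gave no stable picture of its forms. Grm8-202, with the 55-base stretch and 908 codons, the arrangement described in rat as a b form, held 46.21% of Grm8 TPM in replicate 1 and 57.06% in replicate 2, but 43.3% and 37.5% by the second program. Grm8-201, without the stretch and also of 908 codons, held 6.57% in replicate 1 and 36.74% in replicate 2, and 18.8% and 45.5% by the second program. The leading form in replicate 2 therefore depended on the program. Transcripts with the stretch (Grm8-202 and Grm8-203) took 89.7% of the TPM of these and Grm8-201 in replicate 1 and 60.8% in replicate 2, against 69.7% and 45.2% by the second program. All of this rests on 252 expected counts in replicate 1 and 284 in replicate 2. Grm8-204, an incomplete coding model, held 26.74% in replicate 1 on 25.7 counts and 0% in replicate 2, and Grm8-205, a fragment, was seen by the second program alone (15.5% and 11.0%).

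Grm2 was divided almost evenly by TPM. Grm2-201, with 872 codons, held 54.00% of Grm2 TPM in replicate 1 and 48.97% in replicate 2, and Grm2-203, with 594 codons and without the 834 bases shown above, held 43.92% and 46.04%. The exon from which those bases are missing encodes most of the membrane-spanning domain of the receptor. By the second program Grm2-203 led, at 49.3% in replicate 1 and 50.9% in replicate 2, against 47.8% and 41.8% for Grm2-201. In expected counts Grm2-203 held 26.1% in replicate 1 and 28.8% in replicate 2. Its last exon has 207 bases and that of Grm2-201 1975 bases, and the tables hold no reads across the junction that would tell the forms apart directly.

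Grm4-201, with 912 codons, led in Grm4, at 79.35% of TPM in replicate 1 and 80.44% in replicate 2 by the first program, but at 47.0% and 61.8% by the second. Grm4-207, which lacks the 141-base exon and has 865 codons, held 15.19% in replicate 1 and 16.17% in replicate 2 by the first program, and 13.7% and 3.6% by the second. Grm4-205, which has the same 912 codons with other ends, held 5.46% in replicate 1 and 0% in replicate 2 by the first program but 34.2% and 29.3% by the second. Grm3 is annotated with 1 transcript, Grm3-201 of 879 codons. In all, 4 of the 6 detected genes had 1 leading transcript in all 4 quantifications, and Grm2 and Grm8 did not. Grm3 is among the 4 only because it has 1 annotated transcript. The lead in Grm7 was narrow by the second program in replicate 1, at 33.4% for Grm7-202 against 32.6% for Grm7-201.

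**Figure D3:**
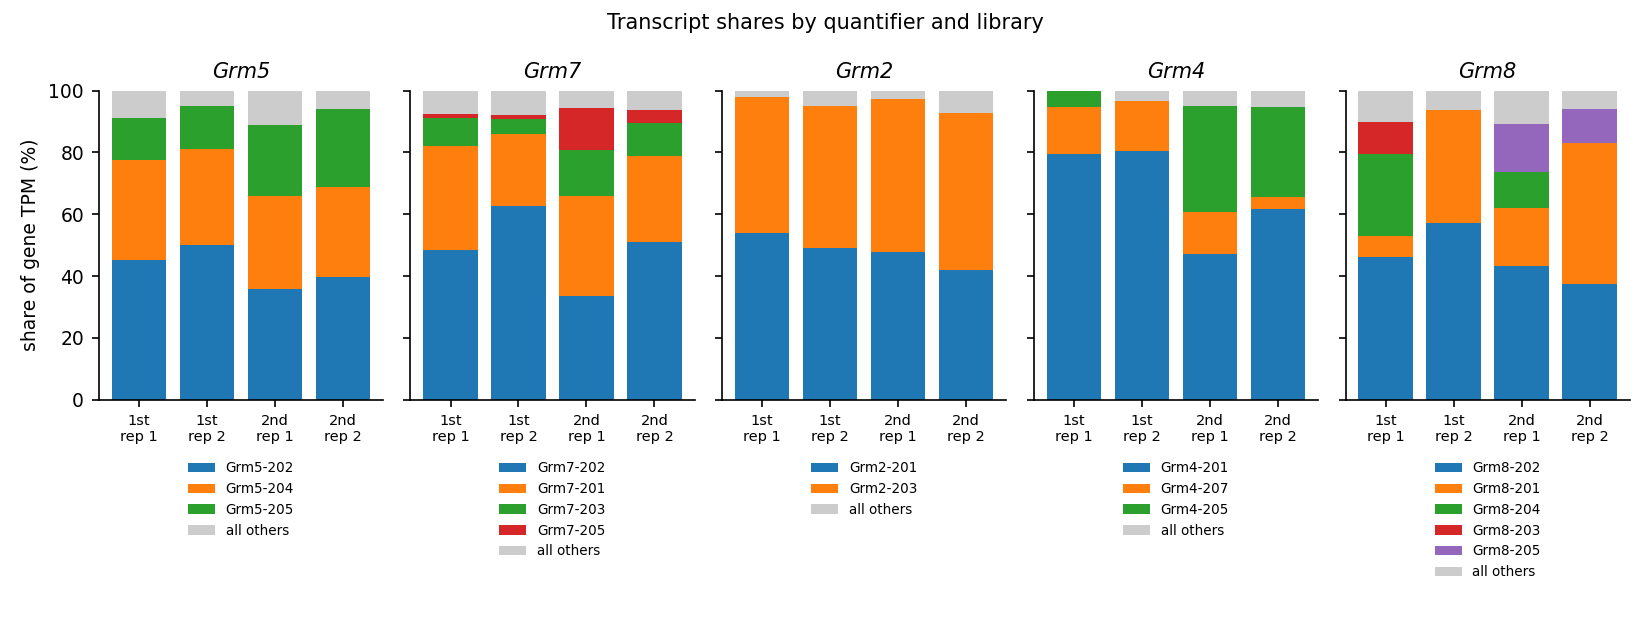
Share of each gene's TPM held by its transcripts in replicate 1 and replicate 2, by the first (1st) and second (2nd) programs, for the 5 detected genes with more than 1 transcript; grey holds transcripts that stay under 10% in every quantification. Grm7-201 takes 33.77% in replicate 1 and 23.19% in replicate 2 by the first program, and the leading Grm2 transcript changes with the program.

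Transcripts not annotated as protein-coding (retained introns, processed transcripts and targets of nonsense-mediated decay) took 4.23% of the receptor genes' expected counts in replicate 1 and 3.02% in replicate 2, against 9.25% and 7.18% over all protein-coding genes. The pooled share is mostly that of Grm5, at 4.37% in replicate 1 and 2.81% in replicate 2, and single genes were higher: Grm7 had 9.35% and 8.99%, and Grm8, on few counts, 14.6% and 6.38%. In TPM, where short transcripts weigh more, the share of Grm5 was 22.5% in replicate 1 and 19.1% in replicate 2, against 18.3% and 14.9% over all protein-coding genes. The retained-intron transcript Grm5-206 had 273.7 expected counts in replicate 1 and 167.6 in replicate 2, which is 2.86% and 1.45% of Grm5. Over all protein-coding genes, retained introns took 5.24% in replicate 1 and 3.59% in replicate 2, so replicate 1 was higher there too.

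The introns of Grm5 hold 5 loci on its own strand that GENCODE classes as TEC, single-exon transcribed regions awaiting experimental evidence, and each had more counts in replicate 1 although that library was the shallower. Gm44846 had 228.0 expected counts in replicate 1 and 126.0 in replicate 2, and Gm44847 had 145.0 and 51.0. Gm44926 had 39.0 and 9.0, Gm44848 35.0 and 19.0, and Gm44927 18.0 and 5.0 counts in replicate 1 and replicate 2. The second program gave Gm44848 more, 182.5 counts in replicate 1 and 93.5 in replicate 2. Together they reached 19.8 CPM in replicate 1 and 7.10 in replicate 2, a ratio of 2.79, and equalled 4.86% and 1.82% of the Grm5 counts. Of the 4 with enough counts, 0 passed the edgeR test, beside 10 of all 925 TEC loci tested. With so few passing in the class, this 0 says little about the 4. The nearest was Gm44847, with a log2 ratio of 1.78 and an adjusted p of 0.221 by edgeR. The class as a whole leaned the same way: all 3219 TEC loci summed were 2.03-fold higher in replicate 1, and 877 of the 925 tested leaned that way, with a median log2 ratio of 1.14.

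**Figure D4:**
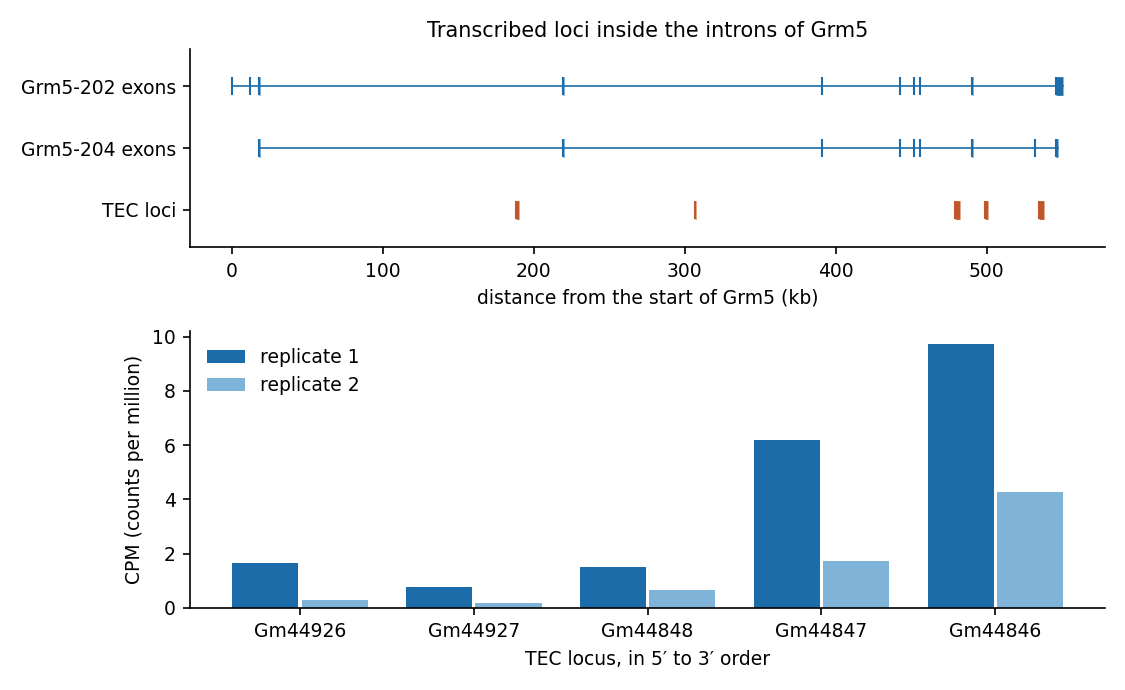
Above, the exons of Grm5-202 and Grm5-204 and the 5 TEC loci by distance from the start of Grm5 in kb; below, CPM of each locus in replicate 1 and replicate 2. All 5 loci are higher in replicate 1, and the highest, Gm44846, lies 535.0 to 538.2 kb from the start, between the 96-base exon and the last exon.

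Other annotated loci within these genes held few counts. The antisense gene Gm20387, which overlaps the first exon of Grm7 on the other strand, had 49.0 expected counts in replicate 1 and 52.0 in replicate 2, and no label or header states whether counting used strand. The antisense genes Gm28111 at Grm2 and Gm12660 at Grm6, and the microRNA gene Mir592 in an exon of Grm8, had 0 counts in both libraries.

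The signalling partners of these receptors were described as 5 lists of genes, of which 16 of the Gq arm, 15 of the Gi and Go arm, 16 scaffolds and partners, 13 of desensitisation and 6 of NAAG metabolism were tested between the animals, with 3 of the retinal list. By the edgeR test 0 of these passed, beside 0.781% of all genes tested. Of 22028 protein-coding genes 13029 were detected, a share to set beside the counts of detected genes that follow. The median over the 13029 detected protein-coding genes was 17.4 TPM. For the Gq arm used by Grm5, all 16 genes reached 1 TPM in both libraries, with a median of 36.0 TPM. The protein kinase C gene Prkcb and the inositol trisphosphate receptor gene Itpr1 were among the highest, at means of 378.4 and 156.7 TPM, and Itpr3, another such receptor, and the phospholipase Plcb2 were the lowest, at 2.05 and 1.29 TPM. For the Gi and Go arm used by groups II and III, all 15 genes were detected, with a median of 55.6 TPM. There the G protein subunit Gnao1 averaged 311.4 TPM, the adenylyl cyclase Adcy1 162.1 and Gnai2 117.4 TPM, while the calcium channel Cacna1b averaged 34.05, Gnai3 13.73 and Adcy8 6.82 TPM.

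Scaffolds and binding partners had a median of 51.8 TPM over the 16 genes found of 17 listed symbols, and those 16 were detected. Ncdn, the receptor-binding protein neurochondrin, averaged 774.1 TPM, and the postsynaptic scaffolds Shank1 and Shank3 averaged 287.1 and 105.5 TPM. The lowest were the ubiquitin ligase Siah1a at 17.07, the synaptic adhesion protein Elfn1, a partner of group III receptors, at 13.66, and Grip1 at 12.78 TPM. Homer1, which links Grm5 to its effectors, had 88.78 TPM in replicate 1 and 63.69 TPM in replicate 2, with a log2 ratio of 0.44 and an adjusted p of 0.963 by edgeR.

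Of 13 genes of desensitisation, all detected with a median of 41.6 TPM, the receptor kinase Grk2, the arrestin Arrb1 and the G protein regulator Rgs4 were the highest, at means of 94.64, 80.38 and 65.80 TPM. Grk5, Rgs16 and Grk4 were the lowest, at 5.645, 3.275 and 3.230 TPM. N-acetylaspartylglutamate (NAAG) is a peptide transmitter that acts on Grm3. Of 8 genes of its metabolism 6 were detected, with a median over the 8 of 8.02 TPM. Over all 22028 protein-coding genes, detected or not, the median was 4.23 TPM. Nat8l, which makes N-acetylaspartate, averaged 76.66 TPM, the NAAG synthetase Rimklb 29.05 and the transporter Slc17a5 10.20 TPM. The peptidase Folh1, which splits NAAG, averaged 5.91 TPM, and the related Naalad2 and Naaladl1 averaged 0.850 and 0.0150 TPM.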

How the data were processed

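Hippocampal total RNA of 2 animals was sequenced from ribosomal RNA-reduced libraries with added ERCC spike-in RNA, per the labels. The authors deposited a gene table and a transcript table per library with expected counts, TPM, the share of each transcript as a percent of its gene, and interval bounds of TPM (first program), and a transcript table with estimated counts and TPM (second program), on mm10 and GENCODE M21 per the deposited notes. The programs' names and versions, and the level of the bounds, were not given in the sources used here.

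Expected counts, rounded to whole numbers, were tested with edgeR 4.0.16 (R 4.3.3). Genes with CPM of 1 or more in at least 1 library were kept and TMM scaling was applied. An intercept-only negative binomial fit with trended dispersion followed. Its residual deviance was set against a chi-square distribution with 1 degree of freedom, Benjamini-Hochberg adjusted. The biological coefficient of variation of 0.191 is that of the common dispersion, whereas the test used the trend. Log2 ratios used a prior count of 2. The count test treats genes as sharing the dispersion trend, so p-values measure the distance of 2 animals against that trend. Depth was 23458117 expected counts for replicate 1 and 29584307 for replicate 2. A gene was called detected at 1 TPM or more in both libraries. Alternatives were RLE, spike-in scaling, other filters, a common dispersion, and the second program. A further alternative took the size factors and dispersion trend of DESeq2 1.42.0 into the same edgeR fit and deviance test. On counts simulated with 1 common dispersion for all genes, the test missed nearly all 2-fold differences, so a gene it did not call may still differ.

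Named transcripts held 10% or more of their gene in any quantification; of each pathway list the 3 highest and 3 lowest genes by mean TPM are named, with the retinal genes; a few genes these rules would name are not reported here. Homer1, the ionotropic receptor genes, Folh1 and the loci within receptor genes were named after their values were seen, as was the comparison of TPM bounds between libraries and the grouping by span. Members and lists were chosen with earlier results of these data known.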

Additional observations from a re-analysis of the deposited data

How the results depend on the processing

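In each of 7 alternative settings of the library test, 0 receptor genes passed, with edgeR adjusted p from 0.982 to 1.000. Genes called numbered 126 with TMM, 341 of 16123 (2.11%) with a common dispersion and 81 of 14840 (0.546%) with a filter on both libraries. Scaling to spike-in counts moved the median log2 ratio of all genes by 0.23 and gave receptor genes ratios of 0.25 to 0.40; by the second program they ran from -0.03 to 0.12, with Grm2, Grm3 and Grm5 below 0. Separated steps in the order numbered 3 to 4 from 1 library alone. In the own order of the second program, where Grm7 stood above Grm3, 5 neighbouring steps kept their direction in both libraries. That rule asks for no gap between bounds, so the 5 are not separated steps in the earlier sense. The share of Grm5 was 55.0% by the second program, 48.0% over protein-coding transcripts, 64.7% in CPM, and 52.7% to 52.9% with 1 library left out. Of 35 alternative levels 6 moved beyond the spread, and of 24 leading transcript shares 7 did, 0 by over 1.5 times in the shares or in levels above 0. These totals include the settings with 1 library left out, which could not move. Each of 2 libraries always lies within the SD of their mean, so the totals understate how much the other settings moved. The share in Grm3, which has 1 annotated transcript, could not move either. Grm6, at 0 TPM by the first program, averaged 0.006496 TPM by the second and 0.09000 TPM as a posterior mean. Between-animal spread rests on 2 libraries, and transcript shares on estimated, not junction, reads; the causes of these shifts were not tested. No paired analysis was possible because both libraries belong to 1 group.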

Other observations

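Among the ionotropic glutamate receptor genes, Gria2, which makes AMPA receptors impermeable to calcium when edited, had 351.09 TPM in replicate 1 and 273.91 TPM in replicate 2. Grin2a had 206.28 TPM in replicate 1 and 146.29 TPM in replicate 2, and Grin2b 158.05 and 117.67 TPM. Of the 15 tested genes of these channels, 0 passed the edgeR test between the animals, beside 126 of 16123 genes overall (0.781%). With so small a share passing among all genes, this 0 does not show that the animals had like levels. Grin3b, the least abundant, had 0.05 TPM in replicate 1 and 0.03 TPM in replicate 2.

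Small loci within the receptor genes were counted differently by the programs. Gm42801, a TEC locus within Grm8, had 0 expected counts in both libraries by the first program, and 28.7 counts in replicate 1 and 30.7 in replicate 2 by the second. Gm42455 within Grm3 had 6.0 and 5.0 counts by the first program, and 32.8 and 29.1 by the second.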
